A study of Homo sapiens with 12 samples.

Results

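A pair of engineered forms of the human breast cancer cell line Hs-578T was compared, the ERK5-ko form, in which the kinase ERK5 had been knocked out, and the MEK5DD form, which carried a constitutively active version of MEK5, the kinase that switches ERK5 on. The comparison used 4 of the 12 RNA sequencing libraries of the series, chosen by their labels alone: 2 ERK5-ko and 2 MEK5DD libraries, each pair taken at passages 8 and 9. Hs-578T is an established triple-negative line of mesenchymal appearance, so it lacks the oestrogen receptor, the progesterone receptor and amplified HER2. The knockout had been made with Cas9 and several guides against early exons of MAPK7, the gene of ERK5, followed by growth from single sorted cells, so the ERK5-ko group is clonal and its genotype and its clone of origin cannot be told apart. How the MEK5DD line was made, and which clone was sequenced, was not given in the sources used here. Both groups were grown in DMEM with serum and harvested at 70% confluence, as were 2 libraries of the parental line at passages 83 and 84, which are given as a reference level. The 6 remaining libraries are the same 3 groups in MDA-MB-231, another triple-negative line.

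MEK5 and ERK5 form a mitogen-activated protein kinase cascade that runs beside the better known ERK1/2 cascade. MEK5 phosphorylates ERK5, an unusually large kinase whose tail can activate transcription, and known downstream factors include MEF2 proteins, KLF2 and KLF4 and, in some settings, AP-1 members such as FOSL1. In breast cancer cells the cascade has been studied for its part in proliferation, in the shift between epithelial and mesenchymal states and in the production of extracellular matrix. Setting a knockout against a line with forced upstream activity asks which genes differ between the absence of ERK5 and the forced activity of its activator, with the unmodified level shown by the parental cells.

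Among the changes described in the text, the one shared by most members of a group was that of cell cycle genes, and the promoters of 5 of the named ones are shown so that the letters in front of genes that moved together can be seen. The sequences are those of RefSeq on GRCh38.p14, from 250 bases before to 50 bases after the annotated start, read 5′ to 3′ on the strand of the gene. Capitals mark CCAAT, the box bound by NF-Y, and TTTGAA, the letters of the cell cycle homology region, on either strand, so CCAAT on the opposite strand reads ATTGG and TTTGAA on the opposite strand reads TTCAAA. Near the start of MKI67 the marked TTTGAA and ATTGG share letters.
CDC45 (chr22:19479670-19479969, plus strand): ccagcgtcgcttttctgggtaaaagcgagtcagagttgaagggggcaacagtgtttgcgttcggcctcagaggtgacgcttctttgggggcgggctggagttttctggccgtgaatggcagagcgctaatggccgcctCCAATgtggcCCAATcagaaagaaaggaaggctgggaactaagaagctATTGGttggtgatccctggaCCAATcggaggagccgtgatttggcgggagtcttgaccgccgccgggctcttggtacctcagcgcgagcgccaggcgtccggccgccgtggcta
RRM2 (chr2:10122489-10122788, plus strand): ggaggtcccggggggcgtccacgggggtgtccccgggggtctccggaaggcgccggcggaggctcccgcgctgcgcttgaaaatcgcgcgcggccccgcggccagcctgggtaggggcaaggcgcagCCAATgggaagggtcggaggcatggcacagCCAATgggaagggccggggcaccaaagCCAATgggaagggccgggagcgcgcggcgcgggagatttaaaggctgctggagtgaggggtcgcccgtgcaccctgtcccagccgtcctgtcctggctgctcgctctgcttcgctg
MCM2 (chr3:127598161-127598460, plus strand): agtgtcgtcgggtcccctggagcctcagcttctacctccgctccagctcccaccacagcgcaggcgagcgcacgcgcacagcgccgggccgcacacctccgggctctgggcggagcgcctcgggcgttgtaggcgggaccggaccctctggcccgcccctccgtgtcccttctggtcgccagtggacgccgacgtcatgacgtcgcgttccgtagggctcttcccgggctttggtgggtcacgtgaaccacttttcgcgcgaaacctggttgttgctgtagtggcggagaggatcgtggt
MKI67 (chr10:128126374-128126673, minus strand): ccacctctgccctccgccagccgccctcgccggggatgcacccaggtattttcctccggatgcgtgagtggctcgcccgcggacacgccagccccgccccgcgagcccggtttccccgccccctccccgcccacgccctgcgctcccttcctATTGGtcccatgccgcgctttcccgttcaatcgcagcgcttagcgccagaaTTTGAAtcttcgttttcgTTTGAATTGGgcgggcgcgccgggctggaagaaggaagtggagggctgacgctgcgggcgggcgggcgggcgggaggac
TOP2A (chr17:40417847-40418146, minus strand): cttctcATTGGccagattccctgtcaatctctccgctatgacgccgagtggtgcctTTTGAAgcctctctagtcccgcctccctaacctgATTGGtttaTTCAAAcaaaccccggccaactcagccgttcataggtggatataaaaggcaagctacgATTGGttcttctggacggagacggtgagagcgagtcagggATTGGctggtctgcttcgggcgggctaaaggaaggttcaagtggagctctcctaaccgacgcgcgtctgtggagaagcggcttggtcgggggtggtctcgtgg
The windows of CDC45, RRM2, MKI67 and TOP2A held CCAAT on at least 1 strand, and those of MKI67 and TOP2A held TTTGAA, whereas the window of MCM2 held neither. The window of CENPF, not shown, held both. The CDC45 window, set by the RefSeq start, lies inside the gene span given below, which begins upstream of it.

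Expression was given as RPKM, reads divided by the length of the gene and by the size of the library. Comparisons between libraries still depended in part on further scaling, as given below. The read totals behind the values were recovered from the smallest steps between them and lay between 20248162 and 26239268 for the 4 libraries. The 2 ERK5-ko libraries differed from each other by a median of 0.102 on the log2 scale and the 2 MEK5DD libraries by 0.218. The first MEK5DD replicate and the first parental replicate had lower values for long genes than the other libraries, with differences between the longest and the shortest of 4 equal groups of genes of -0.24 on the log2 scale in both, against values between 0.08 and 0.18 in the other 4 Hs-578T libraries. The part of gene length in the results was tested only by the correction given with the processing, and the cell cycle and matrix counts are given below with and without the first MEK5DD replicate. Among the markers listed for the line, VIM gave 3449 and 3352 RPKM in the ERK5-ko libraries and 3469 and 4067 RPKM in the MEK5DD libraries, and CD44 gave 1581 and 1695 RPKM in the ERK5-ko libraries and 838 and 819 RPKM in the MEK5DD libraries, while ESR1 and PGR did not reach the level needed for a test. PTPRC, CD3E and VWF also stayed below it, so these defining markers of blood and of endothelium were at or near 0, although the macrophage-linked CD68 gave 25.6 and 23.2 RPKM in the ERK5-ko libraries and 53.3 and 42.0 RPKM in the MEK5DD libraries. Of the other markers listed as low for the line, KRT5 was below the level needed for a test. KRT14 was also listed as low but was not low in MEK5DD, as given further on. ERBB2 and EPCAM, listed as low, passed the filter over the 12 libraries. Their values and those of CAV1 and EGFR, listed as high, are not given here.

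MAPK7, the targeted gene (chr17:19377721-19383544 on GRCh38), was measured at 17.8 and 18.1 RPKM in the ERK5-ko libraries and 16.1 and 17.5 RPKM in the MEK5DD libraries. The 2 groups did not overlap but lay close together, and ERK5-ko over MEK5DD gave 0.09 ± 0.10 (log2, SE; adjusted p 0.468 by limma), and -0.03 after quantile normalization. The parental libraries were at 13.97 and 15.98 RPKM. The amount of MAPK7 RNA over the whole gene was therefore not lower in the knockout, and a gene-level value does not show whether the reading frame is interrupted, so it does not check the label. MAP2K5, the gene of MEK5 (chr15:67542709-67807123), gave 12.5 and 13.8 RPKM in the ERK5-ko libraries and 21.3 and 23.8 RPKM in the MEK5DD libraries. Both MEK5DD libraries were above both knockout libraries and above the parental values of 14.6 and 16.9 RPKM, at -0.75 ± 0.10 on the log2 scale (SE, adjusted p 0.00011 by limma), which is short of a doubling. Reads of an introduced MAP2K5 sequence and of the resident gene cannot be told apart in these values. In MDA-MB-231 the same contrast was -3.57 on the log2 scale, and the difference between the lines, 2.82 ± 0.14 (SE), had an adjusted p of 3.5e-08.

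Across 13737 protein-coding genes tested, 800 were called higher in ERK5-ko than in MEK5DD (5.82%) and 544 were called lower (3.96%), a call being an adjusted p under 0.05 in limma together with at least a 2-fold difference. Differences are on the scale of log2(RPKM + 0.5), which understates those of genes with low values. Of the calls 59.5% were in the higher direction. This split depended on the scaling, since median-ratio scaling gave 661 higher and 678 lower and quantile normalization 690 higher and 696 lower, and the median difference of all tested genes, 0.09 on the log2 scale as deposited, was 0 under both. In bulk RNA, fewer cells of a kind and less RNA per cell cannot be told apart in any of these differences. At least 4-fold differences were called for 129 genes in the higher and 79 genes in the lower direction. Only 1 gene with at least a 2-fold difference missed the adjusted p, so a call was in effect set by the fold. The libraries of the 2 groups did not overlap for 43.4% of all tested genes in the higher and 28.3% in the lower direction, so a lack of overlap sets few genes apart. Nothing in the labels ties the 2 replicates of a group to separate clones. The spread behind the p-values is that between 2 passages within a group. It was pooled over the 6 groups of both lines and drawn toward a trend over genes.

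The 12 genes that led in the higher direction had little in common in function, and in all of them the lowest knockout library was at least several times the highest MEK5DD library. RNASE1, a secreted ribonuclease (chr14:20801228-20803278), gave 36.1 and 30.7 RPKM in the ERK5-ko libraries and 0.272 and 0.161 RPKM in the MEK5DD libraries. DHRS2, a short-chain dehydrogenase of mitochondria and nucleus, gave 80.1 and 104 RPKM in the ERK5-ko libraries and 1.86 and 2.83 RPKM in the MEK5DD libraries. ADD2, the beta chain of adducin, which caps actin filaments under the membrane, gave 21.7 and 24.2 RPKM in the ERK5-ko libraries and 0.311 and 0.549 RPKM in the MEK5DD libraries. All 3 were far lower in both MEK5DD libraries than in both knockout libraries, with log2 fold changes of 5.56 ± 0.12, 5.03 ± 0.17 and 4.67 ± 0.14 (SE, 2 libraries a group) and adjusted p of 1.24e-10, 3.34e-09 and 1.67e-09 by limma. Parental RNASE1 was as low as in MEK5DD (0.193 and 0.160 RPKM), whereas parental DHRS2 lay between the 2 groups (13.98 and 11.9 RPKM).

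PLXDC2, a membrane protein with a plexin-like domain, and TMTC2, an enzyme of the endoplasmic reticulum that attaches mannose to cadherins, were close to silent in MEK5DD. PLXDC2 gave 12.2 and 12.4 RPKM in the ERK5-ko libraries and 0 and 0.00852 RPKM in the MEK5DD libraries, and TMTC2 gave 9.23 and 11.03 RPKM in the ERK5-ko libraries and 0.0110 and 0.0109 RPKM in the MEK5DD libraries. These MEK5DD values rest on 1 recovered read for PLXDC2 and 2 for TMTC2 over both libraries, so the ratios of 2864 (95% exact interval 514 to 113140) and 920.1 (254 to 7602) are loosely fixed, and both intervals cover counting error only. IL7R, the receptor of interleukin-7, rose from 0.749 and 1.96 RPKM in MEK5DD to 23.8 and 34.5 RPKM in the knockout, a log2 fold change of 4.06 ± 0.26 (SE). The X-linked genes CLIC2, of a chloride channel family, and CT83, a cancer-testis antigen, were higher by 3.91 and 3.88 on the log2 scale. SPINK1, a secreted inhibitor of trypsin, gave 10.9 and 13.7 RPKM in the ERK5-ko libraries and 0.377 and 0.521 RPKM in the MEK5DD libraries, and the parental line was as low as MEK5DD at 0.401 and 0.147 RPKM.

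HBE1, the embryonic globin gene, and OR51B4, an olfactory receptor gene that lies within its annotated span on chromosome 11, were both among the 12. HBE1 gave 39.5 and 36.0 RPKM in the ERK5-ko libraries and 4.11 and 1.90 RPKM in the MEK5DD libraries, with 18.3 and 14.6 RPKM in the parental libraries. OR51B4 gave 9.20 and 12.02 RPKM in the ERK5-ko libraries and 0 and 0.149 RPKM in the MEK5DD libraries, and the log2 fold changes were 3.52 ± 0.24 and 4.27 ± 0.14 (SE). HBG2 and OR51B5 of the same stretch, named after their values were seen, rose by 3.24 ± 0.21 and 2.86 ± 0.14 on the log2 scale (SE). These gene models share strand and span, with 983 bases of OR51B4 inside HBE1, so reads of 1 can have been counted for another, while HBB, the adult globin, reached no more than 0.0699 RPKM in any of the 4 libraries. KRTAP7-1, a hair keratin-associated protein, completed the 12 with a log2 fold change of 4.35.

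**Figure D1:**
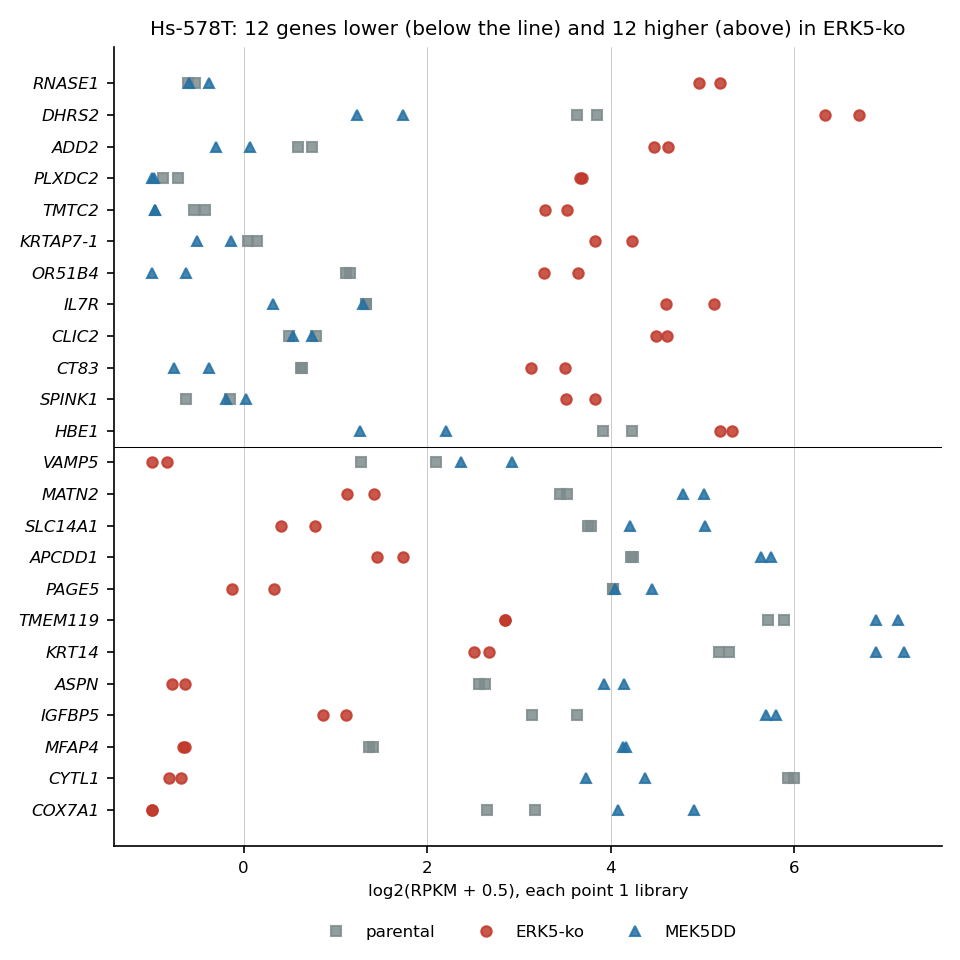
Expression of the 12 most raised (upper block) and 12 most lowered (lower block) genes in the 6 Hs-578T libraries, as log2(RPKM + 0.5) on the horizontal axis, 1 point a library. The knockout points (circles) and MEK5DD points (triangles) do not overlap in any row, which the choice of genes fixed, and the parental points (squares) lie between them for most genes.

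The 12 genes that led in the lower direction were of mixed function. COX7A1, a subunit of cytochrome c oxidase typical of muscle, had no read in either knockout library and 29.5 and 16.4 RPKM in MEK5DD, which puts it at least 176-fold lower in the knockout when 3 reads over the 2 knockout libraries are taken as the floor. MFAP4, a protein of elastic microfibrils, gave 0.133 and 0.144 RPKM in the ERK5-ko libraries and 17.4 and 17.0 RPKM in the MEK5DD libraries. ASPN, or asporin, a small leucine-rich proteoglycan that binds collagen, gave 0.0812 and 0.141 RPKM in the ERK5-ko libraries and 17.2 and 14.7 RPKM in the MEK5DD libraries. The knockout libraries of both were near 0 and the MEK5DD libraries agreed closely with each other, and the log2 fold changes were -4.80 ± 0.09 and -4.75 ± 0.11 (SE), with adjusted p of 1.2e-10 and 1.95e-10 by limma. Parental cells were between the groups for both genes, at 2.07 and 2.15 RPKM for MFAP4 and 5.43 and 5.67 RPKM for ASPN.

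MFAP4 lies beside the edited gene. Its annotated span (chr17:19383442-19387240, minus strand) overlaps the end of MAPK7, which is on the plus strand, by 103 bases, and among the genes within 300 kb that were tested, RNF112, also named after its values were seen, was called lower as well (-1.09 ± 0.22, SE, adjusted p 0.00176 by limma), though not without the first MEK5DD (-0.99) or second ERK5-ko replicate (-0.96). RNF112 gave 0.560 and 0.393 RPKM in the ERK5-ko libraries and 1.71 and 1.43 RPKM in the MEK5DD libraries. Its parental level, 0.606 and 0.751 RPKM, lay nearer to the knockout. EPN2, B9D1, ALDH3A2, SLC47A1 (at 0 RPKM in the 4 libraries) and MAPK7 itself, in the same window, were not called. Whether the position next to the edited gene has a part in the MFAP4 value was not tested.

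KRT14, the keratin of basal and myoepithelial cells (chr17:41582279-41586921), gave 5.20 and 5.88 RPKM in the ERK5-ko libraries and 147 and 118 RPKM in the MEK5DD libraries. IGFBP5, a secreted binding protein of insulin-like growth factors, gave 1.67 and 1.33 RPKM in the ERK5-ko libraries and 51.3 and 55.4 RPKM in the MEK5DD libraries. TMEM119, a membrane protein known from osteoblasts and microglia, gave 6.70 and 6.72 RPKM in the ERK5-ko libraries and 118 and 139.8 RPKM in the MEK5DD libraries. In each of the 3 the knockout was low in both libraries, the parental line was intermediate and MEK5DD was high, with log2 fold changes of -4.46, -4.76 and -4.16 and standard errors of 0.13, 0.15 and 0.12. APCDD1, a membrane inhibitor of Wnt signalling, fell by 4.10 on the log2 scale, SLC14A1, a urea transporter, by 4.03, and MATN2, a matrilin of the matrix, by 3.63. VAMP5, of the membrane fusion machinery, had 1 recovered read over both knockout libraries, and its MEK5DD level was 186 times higher (95% exact interval 32.8 to 7383). PAGE5, a cancer-testis gene that shares 3798 bases of its span with PAGE2, gave 0.418 and 0.755 RPKM in the ERK5-ko libraries and 21.4 and 16.04 RPKM in the MEK5DD libraries. CYTL1, a small secreted protein, was the exception to the intermediate position of the parental line, with 0.125 and 0.0676 RPKM in the ERK5-ko libraries and 20.3 and 12.8 RPKM in the MEK5DD libraries but 63.5 and 60.4 RPKM in the parental libraries.

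The list of genes of the cell cycle and mitosis moved further as a group than any other of the 30 lists. All 49 members were tested, and 37 were called higher in ERK5-ko and 12 were not called. No member was called lower by limma or by limma voom on the recovered reads, and 2 were below MEK5DD at an unadjusted p under 0.05. The median log2 fold change of the members was 1.54, against 0.09 over all tested genes, and it lay between 1.34 and 1.71 in the 4 pairings of a knockout with a MEK5DD library. CDC45, a part of the active replicative helicase (chr22:19479459-19520612), gave 35.4 and 41.6 RPKM in the ERK5-ko libraries and 7.67 and 7.71 RPKM in the MEK5DD libraries. MCM2, a subunit of that helicase, gave 77.0 and 83.4 RPKM in the ERK5-ko libraries and 15.4 and 18.0 RPKM in the MEK5DD libraries. RRM2, the regulated subunit of ribonucleotide reductase, gave 206 and 236 RPKM in the ERK5-ko libraries and 42.6 and 59.4 RPKM in the MEK5DD libraries. In all 3 genes both knockout libraries were several times above both MEK5DD libraries, and the log2 fold changes were 2.25 ± 0.12, 2.23 ± 0.10 and 2.12 ± 0.14 (SE), with adjusted p of 1.19e-07, 2.63e-08 and 4.81e-07 by limma. The other subunits of the helicase that were called, MCM3, MCM4, MCM5 and MCM7, rose by 1.71, 1.56, 1.76 and 1.11, while MCM6 gave 0.50 and was not called.

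Genes of mitosis rose as well. TOP2A, the topoisomerase that untangles chromosomes, gave 239.8 and 268 RPKM in the ERK5-ko libraries and 58.5 and 95 RPKM in the MEK5DD libraries. MKI67, which encodes the Ki-67 antigen used to stain dividing cells, gave 22.0 and 23.3 RPKM in the ERK5-ko libraries and 3.43 and 7.01 RPKM in the MEK5DD libraries. CENPF, a protein of the kinetochore, gave 53.2 and 60.9 RPKM in the ERK5-ko libraries and 8.66 and 21.4 RPKM in the MEK5DD libraries. The knockout values of these genes were tight, whereas the 2 MEK5DD libraries stood apart, the first replicate being the lower, so that the standard errors were 0.20, 0.32 and 0.38 around log2 fold changes of 1.76, 2.09 and 2.02. Among the regulators, E2F1 rose by 1.95, CDC6 by 1.96, PLK1 by 1.85, AURKA by 1.82, CCNB1 by 1.63 and FOXM1 by 1.16 on the log2 scale. CDKN2A, whose products include the inhibitor p16, was also called higher, by 1.47, although it restrains the cycle. Inhibitors and cyclins not called included CDKN1A (0.22), CDKN1B (-0.47) and CCND3 (0.33), and CDK4, the most abundant kinase of the list, gave 216 and 207 RPKM in the ERK5-ko libraries and 277 and 225 RPKM in the MEK5DD libraries. Without the first MEK5DD replicate 35 members were called higher, FOXM1 (0.83) no longer among them, and over the other alternatives the count lay between 35 and 38 with none lower by limma.

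The summed level of the 49 members was 3583 and 3813 RPKM in ERK5-ko, 2453 and 2218 RPKM in the parental line and 1436 and 1633 RPKM in MEK5DD, so the parental libraries lay between the engineered forms. Against the parental line, 13 of the 49 members were called higher in ERK5-ko (median 0.71), beside 2.7% higher and 3.27% lower of all tested genes. In MEK5DD against the parental line 8 were called lower (median -0.62), beside 0.939% higher and 1.49% lower of all tested genes. These contrasts share the parental libraries, whose second replicate gave more MKI67 than the first (11.2 against 4.97 RPKM). The passage labels of the parental libraries were also far from those of the engineered lines, so passage and engineering cannot be told apart there. The paper states that the knockout was made from cells already at a late passage. The labels of the engineered lines may therefore count from a later start.

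**Figure D2:**
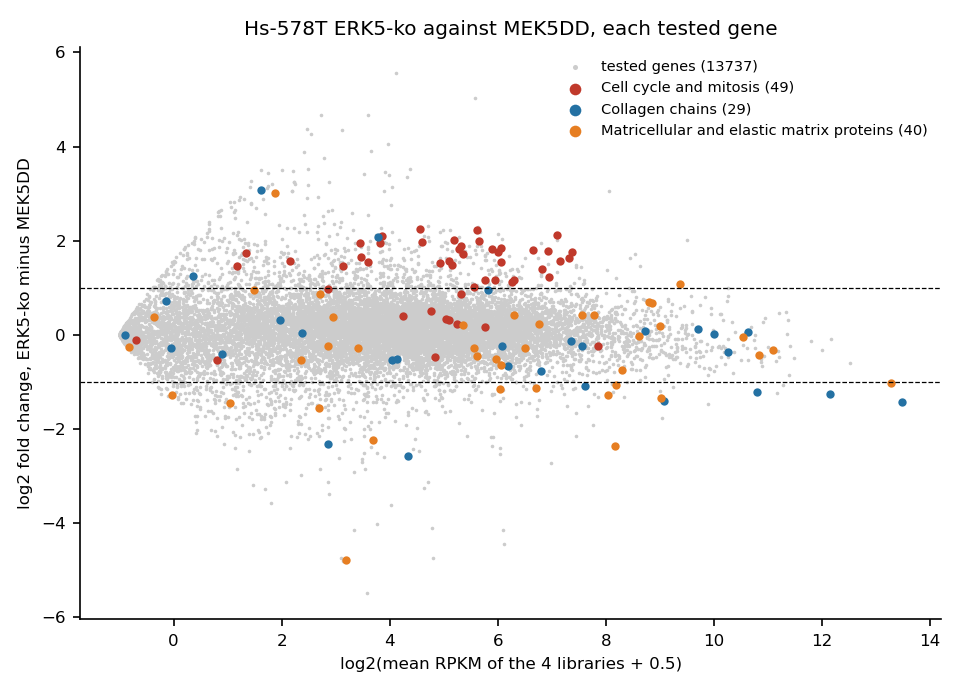
Log2 fold change of ERK5-ko over MEK5DD (vertical axis) against the mean level of each gene in the 4 libraries (horizontal axis, log2 of RPKM + 0.5), 1 point for each of 13737 tested genes. Cell cycle genes sit mostly above the upper dashed line of a 2-fold difference, while collagen and matricellular genes spread to both sides, 7 and 12 of them being called lower.

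In the promoter windows the letters were counted over all genes with a RefSeq entry, as a description. A window was found for 10281 tested genes, for 567 of the 800 called higher and for 387 of the 544 called lower, and shares are of these. CCAAT was present on either strand in 26 of 38 cell cycle genes with a window (68.4%), in 54.9% of the genes called higher, in 40.6% of those called lower, in 43.3% of the tested genes and in 39.7% of all 27305 entries with a window. TTTGAA was present in 26.3% of the cell cycle genes, 27.9% of those called higher, 12.9% of those called lower, 13.9% of the tested genes and 18.2% of all. The 2 E2F words searched, TTTCCCGC and TTTGGCGC, were found in 10 of the 38 cell cycle genes (26.3%), in 9.52% of the genes called higher, in 1.29% of those called lower, in 4.47% of the tested genes and in 2.75% of all. A gene with several annotated starts counted once if any of its windows held the letters. The windows of CDC45 and RRM2 printed above hold CCAAT on 4 and 3 occasions, and no E2F word of this spelling.

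Genes of the extracellular matrix tended the other way, though not all of them. Of 43 collagen chains listed, 29 were tested, with 7 called lower, 3 called higher and 19 not called, and a median of -0.24 on the log2 scale. These shares, 24.1% lower and 10.3% higher, were both above those of all tested genes, 3.96% and 5.82%. COL1A1, which with COL1A2 forms type I collagen, was the most abundant (chr17:50183289-50201632) and gave 6488 and 5818 RPKM in the ERK5-ko libraries and 14841 and 18528 RPKM in the MEK5DD libraries. COL1A2 gave 2774 and 2536 RPKM in the ERK5-ko libraries and 6011 and 6770.4 RPKM in the MEK5DD libraries. The 2 knockout libraries were well below the MEK5DD libraries for both genes, without overlap, and the log2 fold changes were -1.43 ± 0.15 and -1.27 ± 0.32 (SE), with adjusted p of 1.6e-05 and 0.00708 by limma. COL3A1 and COL5A1, fibrillar chains that assemble with type I, changed by -1.22 and -1.403 on the log2 scale, both called lower, and COL15A1 and COL8A2, of basement membrane zones and vessel walls, fell by 2.57 and 2.33. COL16A1 was called lower by 1.09. The calls of COL1A1 and COL1A2 depended on the scaling, since quantile normalization, which evens out the levels of the most abundant genes, gave -0.32 (adjusted p 0.133) and -0.82 (adjusted p 0.0508) by limma. COL1A2 also lost its call without the second ERK5-ko replicate (-1.20), and COL16A1 without the second MEK5DD replicate (-0.97).

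The collagens called higher were of other types. COL22A1, found at tissue junctions, gave 5.14 and 4.77 RPKM in the ERK5-ko libraries and 0.125 and 0.164 RPKM in the MEK5DD libraries, and COL14A1, which binds the surface of fibrils, gave 22.0 and 21.3 RPKM in the ERK5-ko libraries and 4.11 and 5.47 RPKM in the MEK5DD libraries. Both were several times higher in the knockout than in MEK5DD and in the parental line (0.332 and 0.448 RPKM, 5.41 and 7.54 RPKM). COL17A1, the transmembrane collagen of hemidesmosomes, was called higher by 1.25. COL4A1 and COL4A2, of basement membranes, gave 0.07 and 0.11 and COL6A3 gave 0.02 on the log2 scale, none of them called and all of them below 0 under median-ratio scaling. Without the first MEK5DD replicate 7 chains were again called lower and 3 higher.

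Matricellular and elastic proteins had the highest share of members called lower among lists with 10 or more tested members. Of 40 tested, 12 were called lower (30%), 2 higher (5%) and 26 not, with a median of -0.28. Of all tested genes 3.96% were called lower and 5.82% higher. DCN, or decorin, a proteoglycan that coats collagen fibrils, gave 96.3 and 88.1 RPKM in the ERK5-ko libraries and 564 and 401 RPKM in the MEK5DD libraries. SPARC, a collagen-binding matricellular protein, gave 6324 and 6791 RPKM in the ERK5-ko libraries and 14043 and 12659 RPKM in the MEK5DD libraries. THBS3, a thrombospondin, gave 4.10 and 3.85 RPKM in the ERK5-ko libraries and 21.0 and 20.4 RPKM in the MEK5DD libraries. All 3 were lower in both knockout libraries than in either MEK5DD library, at -2.36 ± 0.16, -1.02 ± 0.21 and -2.24 ± 0.10 (log2, SE), and SPARC only just passed the 2-fold mark. The SPARC value changed sign under quantile normalization (0.32, adjusted p 0.3, limma), and its call was lost without the first ERK5-ko replicate (-0.97) or the first MEK5DD replicate (-0.95). LUM, or lumican, fell by 1.35, THBS2 by 1.46, FBLN5, an elastic fibre protein, by 1.56, HSPG2, or perlecan, by 1.15, and the CCN family members WISP1 and WISP2 by 1.29 and 1.29. MFAP5, a microfibril protein like MFAP4, went the opposite way, with 5.54 and 6.55 RPKM in the ERK5-ko libraries and 0.166 and 0.490 RPKM in the MEK5DD libraries, and EFEMP1, or fibulin-3, was called higher by 1.08. TGFBI, an abundant adhesion protein, gave -0.32 and was not called. HSPG2 stood at -0.83 without the second ERK5-ko replicate and EFEMP1 at 0.99 without the second MEK5DD replicate, and neither was then called. Without the first MEK5DD replicate 10 members were called lower and 3 higher.

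Enzymes that crosslink or cut the matrix were mixed, with 5 of 41 called lower (12.2%), 4 higher (9.76%) and a median of -0.09. With at least 1 RPKM required in 2 of the 4 libraries, 35 were tested, with the same counts and a median of -0.20. The shares over all tested genes were 3.96% lower and 5.82% higher. LOXL1, a lysyl oxidase of elastic fibres, gave 72.4 and 55.3 RPKM in the ERK5-ko libraries and 271 and 298 RPKM in the MEK5DD libraries. MMP11, or stromelysin-3, gave 4.40 and 3.09 RPKM in the ERK5-ko libraries and 25.7 and 24.6 RPKM in the MEK5DD libraries, and TGM2, tissue transglutaminase, gave 3.49 and 2.76 RPKM in the ERK5-ko libraries and 13.8 and 13.8 RPKM in the MEK5DD libraries. These genes were lower in both knockout libraries than in MEK5DD and in the parental line alike (259.8 and 281 RPKM for LOXL1). MMP14 and P4HA3 fell by 1.33 and 1.36. ADAMTS1, a protease of proteoglycans, gave 49.98 and 59.4 RPKM in the ERK5-ko libraries and 15.5 and 20.6 RPKM in the MEK5DD libraries and rose by 1.58 ± 0.14 (SE), MMP3 rose by 1.76 from a low level, and PLOD2, a lysyl hydroxylase, by 1.10, or by 0.93 and uncalled without the first MEK5DD replicate. MMP16, a membrane-bound protease, completed the calls at 1.22, or 0.84 and uncalled without that library. LOXL2, the most abundant oxidase, gave 0.06 and MMP2 -0.67, and neither was called.

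**Figure D3:**
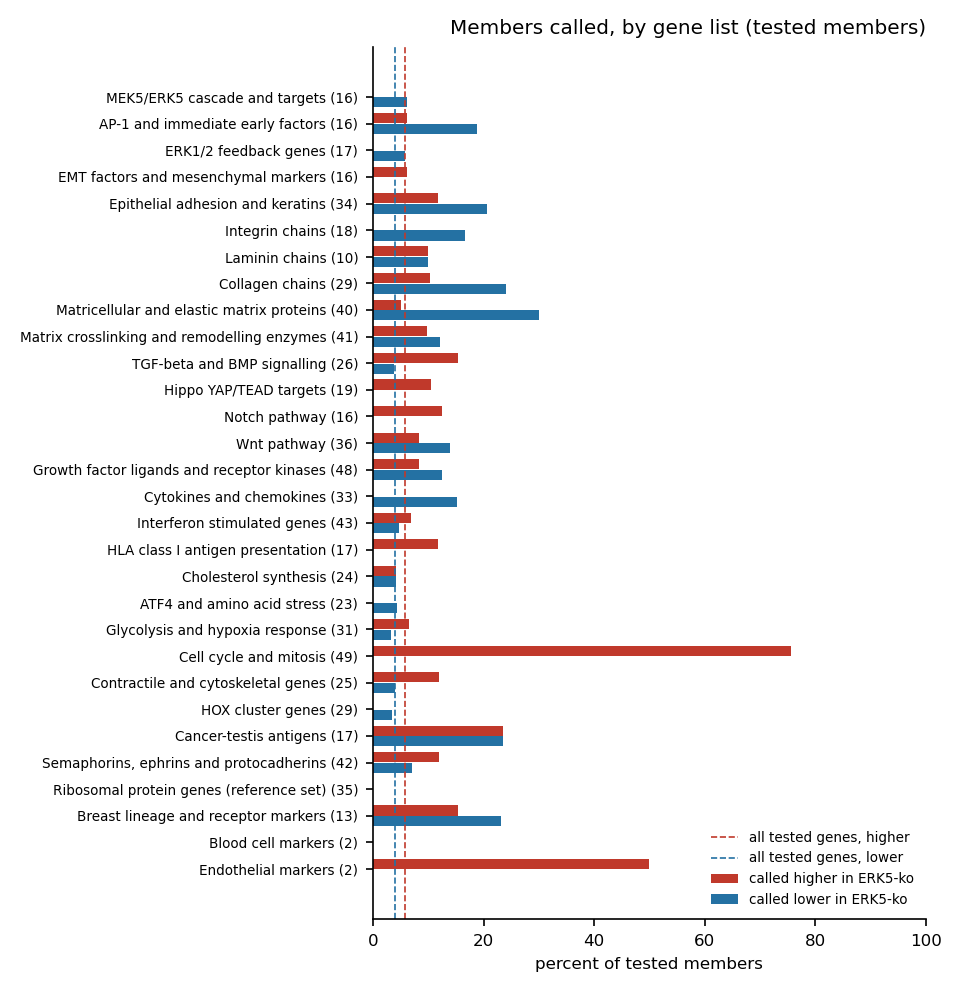
Share of the tested members of each gene list called higher (red) and lower (blue) in ERK5-ko than in MEK5DD, as percent on the horizontal axis, with the number tested in brackets. The dashed lines stand at 5.82% and 3.96%, the shares over all tested genes, and the cell cycle list, at 75.5% higher, is far from both lines, while the bar of the endothelial list rests on 1 of 2 genes.

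Adhesion and epithelial genes went in both directions. Of 34 tested epithelial genes 7 were called lower (20.6%) and 4 higher (11.8%), beside 3.96% and 5.82% of all tested genes. The median was 0.00, and the basal and stress keratins were among the lower ones. With at least 1 RPKM required in 2 of the 4 libraries, 17 of these genes were tested. Of those, 7 were called lower and 3 higher, with a median of -0.23. KRT17 gave 0.832 and 1.37 RPKM in the ERK5-ko libraries and 12.3 and 9.81 RPKM in the MEK5DD libraries, and KRT16 gave 2.72 and 2.41 RPKM in the ERK5-ko libraries and 13.1 and 15.5 RPKM in the MEK5DD libraries, both with MEK5DD above the parental line. KRT18, the keratin of simple epithelia, went up with 547 and 596 RPKM in the ERK5-ko libraries and 157 and 192 RPKM in the MEK5DD libraries, whereas its partner KRT8 gave 29.7 and 27.9 RPKM in the ERK5-ko libraries and 71.0 and 61.4 RPKM in the MEK5DD libraries and was called lower. The tight junction gene CLDN1 was called higher by 2.05, and CDH1, or E-cadherin, by 1.29, but its knockout level was only 0.930 and 1.16 RPKM. JUP and PKP2, of desmosomes, fell by 1.65 and 1.30, and SPINT1, a serine protease inhibitor of epithelia, by 2.12. Of 16 EMT factors and mesenchymal markers only ACTA2 was called, a share of 6.25% higher, close to the 5.82% of all tested genes. ACTA2, smooth muscle actin, gave 495 and 457 RPKM in the ERK5-ko libraries and 52.5 and 60.6 RPKM in the MEK5DD libraries with 157 and 124 RPKM in the parental libraries, a log2 fold change of 3.06 ± 0.13 (SE, adjusted p 1.29e-08, limma). VIM (-0.14, but 0.34 under quantile normalization), FN1 (0.49) and TWIST1 (-0.82) were not called.

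Contractile genes gave 3 called higher (12%) and 1 lower (4%) of 25, beside 5.82% and 3.96% of all tested genes. ACTG2, enteric smooth muscle actin, gave 294 and 248 RPKM in the ERK5-ko libraries and 94.5 and 105 RPKM in the MEK5DD libraries, and MYH10, a non-muscle myosin, gave 117 and 119 RPKM in the ERK5-ko libraries and 36.0 and 71.0 RPKM in the MEK5DD libraries, but without the first MEK5DD library, which was far below the second, MYH10 stood at 0.73 and was not called. ACTBL2, an actin-like gene, was the third call at 1.92. CNN1, or calponin, another smooth muscle gene, fell by 1.32 from 8.10 and 7.03 RPKM in MEK5DD, although the parental line was lower still at 1.78 and 1.01 RPKM. Among 18 integrin chains, ITGA7, ITGB8 and ITGA10 were called lower (16.7%), and the abundant ITGB1 and ITGB5 gave -0.01 and -0.01. LAMB3, the beta chain of laminin-332, gave 45.3 and 41.0 RPKM in the ERK5-ko libraries and 7.07 and 9.73 RPKM in the MEK5DD libraries and rose by 2.31 ± 0.12 (SE), while LAMA2 fell by 1.05. Without single libraries ITGA10 (-0.99 without the first MEK5DD replicate) and LAMA2 (-0.84 without the second, -0.93 without the second ERK5-ko replicate) were not called.

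The signalling lists had few called members each. The counts of these and of the later lists stand beside 5.82% higher and 3.96% lower over all tested genes. The filter ran over all 12 libraries, so the tested members of a list can include genes near 0 in the 4 compared here. In the list of the MEK5 and ERK5 cascade and its known targets, 16 genes were tested and MEF2C was the one called, lower, with 0.501 and 0.585 RPKM in the ERK5-ko libraries and 1.80 and 1.997 RPKM in the MEK5DD libraries. No member was called higher by limma or limma voom, and 3 were above MEK5DD at an unadjusted p under 0.05. Of the KLF factors in that list, KLF4 gave 21.3 and 19.5 RPKM in the ERK5-ko libraries and 10.8 and 13.4 RPKM in the MEK5DD libraries and KLF6 gave 61.4 and 65.3 RPKM in the ERK5-ko libraries and 81.6 and 83.8 RPKM in the MEK5DD libraries, so that KLF4 was above and KLF6 below the MEK5DD level, both by less than 2-fold. The 16 tested AP-1 and immediate early genes gave 1 call higher and 3 lower. FOSL1 rose from 42.9 and 46.3 RPKM to 119 and 118 RPKM, and the parental level, 48.6 and 48.5 RPKM, was close to that of MEK5DD. EGR1, EGR2 and EGR3 fell by 1.43 ± 0.39, 2.19 ± 0.13 and 1.05 ± 0.15 on the log2 scale (SE). Without the second MEK5DD replicate EGR1 (-0.86) and EGR3 (-0.77) were not called, and EGR1 was not called without the first ERK5-ko replicate (-1.19) or in a fit of the 4 libraries alone (adjusted p 0.0672, limma). FOS gave 12.03 and 19.5 RPKM in the ERK5-ko libraries and 35.5 and 55.9 RPKM in the MEK5DD libraries and its parental libraries 110.1 and 10.1 RPKM, a spread so wide that its log2 fold change of -1.51 did not pass (adjusted p 0.152, limma), whereas it was called lower in the fit of the 4 libraries alone (adjusted p 0.0323). Of 17 feedback genes of ERK1/2, SPRY2 was the one called, lower by 1.15, and DUSP6 (-0.82) and ETV4 (0.96) stayed within 2-fold in opposite directions.

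In the TGF-beta and BMP list 4 of 26 were called higher (15.4%) and 1 lower (3.85%). FST, or follistatin, which traps activins, gave 79.1 and 86.9 RPKM in the ERK5-ko libraries and 18.6 and 17.1 RPKM in the MEK5DD libraries, SMAD3, a transducer of TGF-beta, rose by 1.05, and ID1, a target of BMP signalling, by 1.69. CHRD rose by 1.02 at levels under 1 RPKM, and it shares strand and span with EIF2B5. Without the first MEK5DD replicate SMAD3 (0.95) and CHRD (0.99) were not called, nor was CHRD without the second ERK5-ko replicate (0.94). Of 19 genes tied to YAP and TEAD, ANKRD1 (1.43) and CRIM1 (1.21, but 0.88 without the first MEK5DD replicate) were called higher. That list held the factors YAP1, WWTR1, TEAD1, TEAD2, TEAD3 and TEAD4 beside targets, while CTGF and CYR61 were in the matricellular list. The median of the list was 0.48, running from 0.24 to 0.88 over the 4 pairings of libraries. At an unadjusted p under 0.05 (limma), 11 members were higher and 1 lower. JAG1, a ligand of Notch, gave 179 and 174 RPKM in the ERK5-ko libraries and 34.3 and 60.0 RPKM in the MEK5DD libraries, with 116 and 107 RPKM in the parental libraries, and rose by 1.95 ± 0.19 (SE), and DTX1 was the other of 16 Notch genes called higher. Of 36 Wnt genes 5 were called lower and 3 higher: the ligand WNT11 (-1.83) and the inhibitors NOTUM (-1.79), SFRP2 (-1.60) and NKD1 (-1.52) were lower, as was the target AXIN2 (-1.01), and SFRP1 (1.65), LGR4 (1.02) and ROR2 (1.07) were higher. Of these, AXIN2 was not called without the second MEK5DD (-0.89) or second ERK5-ko replicate (-0.99). LGR4 was not called without the first MEK5DD (0.95) or second ERK5-ko replicate (0.99), and ROR2 was not called without the first MEK5DD (0.997) or first ERK5-ko replicate (0.98). The count of Wnt genes depended on the scaling and on 1 library, being 9 lower and 1 higher both under median-ratio scaling and without the first MEK5DD replicate.

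Growth factors, their receptors and cytokines followed. Of 48 growth factor and receptor genes 6 were called lower (12.5%) and 4 higher (8.33%). Next to IGFBP5, the related IGFBP7 gave 559 and 438 RPKM in the ERK5-ko libraries and 1592 and 1193 RPKM in the MEK5DD libraries and IGFBP6 gave 27.9 and 23.1 RPKM in the ERK5-ko libraries and 80.7 and 76.4 RPKM in the MEK5DD libraries. GAS6, the ligand of AXL, fell by 1.46 and PDGFA by 1.43, whereas the abundant IGFBP3 gave -0.23 and was not called. ANGPT1, a ligand of the TIE2 receptor, rose from 27.0 and 26.5 to 79.5 and 83.8 RPKM, and the receptor kinase MET rose by 1.39 on the log2 scale. Among 33 cytokine genes 5 were called lower (15.2%). None was called higher by limma, while limma voom called 2 higher, and 8 were above MEK5DD at an unadjusted p under 0.05. IL1B gave 0.825 and 1.03 RPKM in the ERK5-ko libraries and 4.33 and 4.11 RPKM in the MEK5DD libraries, IL1RN, the natural antagonist of its receptor, fell by 1.66, and IL32 gave 37.9 and 32.4 RPKM in the ERK5-ko libraries and 93.6 and 77.4 RPKM in the MEK5DD libraries. TNFRSF11B, or osteoprotegerin, fell by 1.87 ± 0.18 (SE). IL1A, with 2 recovered reads over both knockout libraries, was 35.9 times higher in MEK5DD (95% exact interval 9.5 to 303) and was not called without the first MEK5DD replicate (-0.96 on the log2 scale).

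Interferon-stimulated genes were close to the background, with 3 of 43 called higher, OAS1, OAS2 and OAS3, neighbours of 1 family, and 2 called lower, IFI27 and BST2. BST2 was not called without the first MEK5DD replicate (-0.74) and OAS1 not without the second (0.79) or the first ERK5-ko replicate (0.99). Of 17 genes of HLA class I presentation TAP2 (1.34, sharing its span with another gene model) and HLA-F (1.01, but uncalled at 0.68 without the second MEK5DD and 0.89 without the first ERK5-ko replicate) were called higher, while B2M (-0.74) was below MEK5DD by less than 2-fold. DDIT4, a stress-induced inhibitor of mTOR, was the one call of 23 ATF4-linked genes, lower by 1.13. Of 31 genes of glycolysis and hypoxia, SLC16A3, the lactate exporter, was called lower with 8.44 and 6.30 RPKM in the ERK5-ko libraries and 34.3 and 37.4 RPKM in the MEK5DD libraries, and EGLN3 (1.19) and ANKRD37 (1.18) were called higher, but not without the first ERK5-ko replicate for EGLN3 (0.92) or, for ANKRD37, the second MEK5DD (0.92) or second ERK5-ko replicate (1.18). Cancer-testis genes gave 4 calls in each direction among 17 tested, with CT83, PAGE1 (2.40), SSX1 (1.48) and MAGEA1 (1.11) higher and PAGE5, XAGE2 (-2.10), MAGEA11 (-1.28) and PAGE2 (-1.27, or -0.88 without the first MEK5DD replicate) lower. Of 42 guidance genes 5 were called higher and 3 lower, led by EPHB1 (2.63) and SEMA5A (-2.40), but 2 were higher and 4 lower without the first MEK5DD replicate, and 3 were called each way under median-ratio scaling. One of 29 HOX genes, HOXA3, was called, lower by 1.16, and it shares strand and part of its span with HOXA4, HOXA5 and HOXA6. In the breast lineage list, CD24 gave 37.7 and 35.1 RPKM in the ERK5-ko libraries and 118 and 129 RPKM in the MEK5DD libraries, and TP63 (1.02, but 0.74 without the first MEK5DD and 0.89 without the second ERK5-ko replicate) and KRT18 were called higher. None of the 35 ribosomal protein genes was called by limma or limma voom, with 14 lower and 1 higher at an unadjusted p under 0.05, but their median was -0.32 and ran from -0.60 to -0.02 over the 4 pairings of libraries, the first MEK5DD replicate having the highest ribosomal sum. PECAM1, an endothelial marker that other cells also express, was called higher, with 6.48 and 6.31 RPKM in the ERK5-ko libraries and 2.81 and 2.96 RPKM in the MEK5DD libraries, though not without the first MEK5DD replicate (0.99), and the 2 blood markers tested, CD68 and CD14, were not called.

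For the called genes the parental level was set beside both engineered forms. Of the 800 genes higher in ERK5-ko, the parental mean was nearer to MEK5DD or beyond it for 560 (70.0%), namely between the groups for 502 and beyond MEK5DD for 58. For 222 it was between the groups and nearer to the knockout, and for 18 beyond the knockout. Of the 544 lower genes the parental mean was on the MEK5DD side for 412 (75.7%), 312 of them between the groups and 100 beyond MEK5DD. In their own contrasts with the parental line, 300 of the 800 were also called higher in ERK5-ko and 106 were called lower in MEK5DD, and 273 of the 544 were called lower in ERK5-ko and 83 higher in MEK5DD.

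The same contrast in MDA-MB-231 called 1164 genes higher in ERK5-ko (8.47%) and 841 lower (6.12%). Of the genes called higher in Hs-578T, 45 were called higher in MDA-MB-231 as well, 5.62% of the Hs-578T and 3.87% of the MDA-MB-231 calls, and 189 were called lower there, 23.6% and 22.5% of the respective calls. Of those called lower in Hs-578T, 29 were lower in both lines and 132 were higher in MDA-MB-231. The test of the difference between the lines called 2096 genes with the higher log2 fold change in Hs-578T (15.3%) and 1824 with the lower one (13.3%).

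Cell cycle genes were opposed between the lines. In MDA-MB-231, 21 of the 49 were called lower in ERK5-ko than in MEK5DD and 1 higher, with a median of -0.93, and the difference between the lines was called for 39 in the direction of Hs-578T and for 1 in the other. MCM2 was at -0.55 ± 0.10 in MDA-MB-231 against 2.23 ± 0.10 in Hs-578T (log2, SE), and CDC45 at -0.80 ± 0.12 against 2.25 ± 0.12, with adjusted p of the difference of 3.36e-08 and 7.5e-08 by limma. The passages of the MDA-MB-231 groups were not matched, being 7 and 8 for ERK5-ko and 10 and 11 for MEK5DD. Collagen I was opposed as well, COL1A1 standing at 0.95 ± 0.15 in MDA-MB-231, a difference of -2.38 ± 0.21 (SE, adjusted p 2.44e-06, limma), but its level there was 6.93 and 6.02 RPKM in ERK5-ko and 2.76 and 3.50 RPKM in MEK5DD, far below that in Hs-578T.

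The genes with the largest difference between the lines were SLC12A7, THBS2, SSX1, CDYL2, ARHGDIB and PLXDC2. SLC12A7, a potassium and chloride transporter, was at -1.47 in Hs-578T and 5.12 in MDA-MB-231, and THBS2, a thrombospondin, at -1.46 and 5.54. In the other direction SSX1, a cancer-testis gene, was at 1.48 and -5.04, CDYL2, a chromodomain protein, at 2.51 and -4.23, and ARHGDIB, a regulator of small GTPases, at 2.66 and -3.48. CDYL2 had 2 recovered reads over both MEK5DD libraries of Hs-578T, a ratio of 116 (95% exact interval 31.9 to 965).

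**Figure D4:**
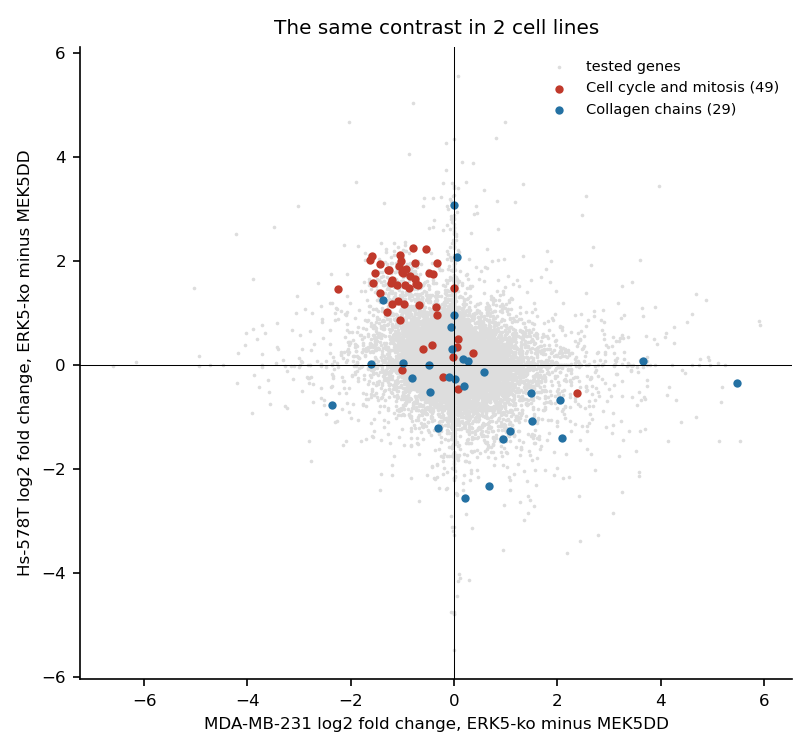
Log2 fold change of ERK5-ko over MEK5DD in Hs-578T (vertical axis) and in MDA-MB-231 (horizontal axis), 1 point a tested gene. Cell cycle genes gather at the upper left, raised in Hs-578T with a median of 1.54 and at a median of -0.93 in MDA-MB-231, and collagen genes lie mostly in the lower right and near the axes.

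The called genes were spread unevenly over the chromosomes, which is given as a description. On chromosome X 58 of 480 tested genes were called higher (12.1%), among them CT83, CLIC2, SSX1 and PAGE1, and on chromosome 8 57 of 480 (11.9%), among them COL22A1, COL14A1, SFRP1 and ANGPT1. Among the nuclear chromosomes the lowest shares of higher calls were 3.09% on chromosome 14 and 3.10% on chromosome 13. For lower calls, chromosome 7 had 45 of 637 (7.06%), COL1A2 and HOXA3 among them, and chromosome 14 had 30 of 453 (6.62%). The median of all tested genes on chromosome 8 was 0.32 on the log2 scale and on chromosome 7 -0.18. DNA copy number was not measured in these libraries, and its part in these shares was not tested.

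**Figure D5:**
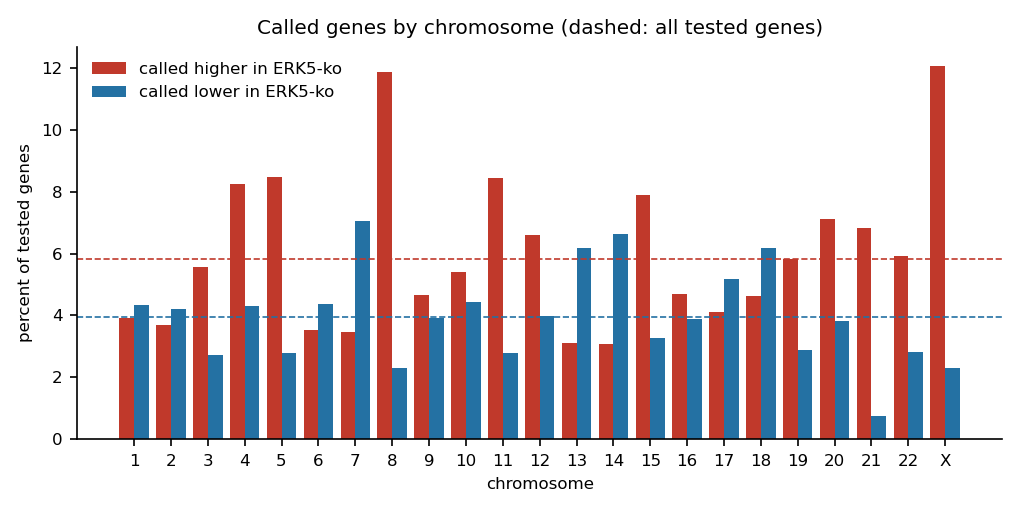
Percent of the tested genes of each chromosome that were called higher (red bars) or lower (blue bars) in ERK5-ko than in MEK5DD, with dashed lines at 5.82% and 3.96%, the shares over all tested genes. The red bars of chromosomes 8 and X reach 11.9% and 12.1%, and the blue bar of chromosome 7 reaches 7.06%.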

How the data were processed

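RNA was sequenced from 12 libraries (TruSeq stranded mRNA kit), 2 for each of 6 groups. Per the submitters' processing notes, Trimmomatic 0.32, TopHat2 2.1.1, R 3.3.1 and DESeq2 1.12.4 were used with build GRCh38, and the deposited values are RPKM, which the authors computed per gene. The gene lengths and counting tool were not given in the sources used here. Whole reads were recovered for 32152 of 32152 genes. Intervals cover counting error only.

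Protein-coding genes with at least 0.5 RPKM in at least 2 of the 12 libraries were fitted with limma 3.58.1 (R 4.3.3) on log2(RPKM + 0.5), with 6 group means, a variance trend on the mean level and Benjamini-Hochberg adjustment over 13737 genes. A call needed an adjusted p under 0.05 and a 2-fold difference. The scripts were tested on simulated data. Named genes were the 12 largest changes in each direction with a mean of at least 1 RPKM, up to 5 members of each list with the largest change and the 2 most abundant, and the 6 largest differences between the lines, and further genes were named where a small count called for it. The members and the 30 lists were chosen with earlier results of these data known, and 17 listed genes were not in the table. Deviations of same-numbered Hs-578T libraries from their group means correlated at 0.157 (ERK5-ko with MEK5DD), 0.107 (ERK5-ko with parental) and 0.541 (MEK5DD with parental). The main fit did not use the numbers as pairing, and a fit with the number as a block was an alternative. Other alternatives changed the pseudocount, filter, scaling, libraries fitted, gene types, thresholds and test (limma voom). A spline correction of each library for transcript length and GC was added after seeing the data. Results of some genes are not reported here.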

Additional observations from a re-analysis of the deposited data

Results flagged for a closer look

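The contrast of ERK5-ko with MEK5DD differed between Hs-578T and MDA-MB-231 for 3920 of 13737 tested genes, 28.5%, in the limma test of the difference itself. Of the 189 genes named in the text 134 passed that test, and 34 of them passed in each line with opposite signs, 14 higher and 20 lower in Hs-578T. Many of these genes were named for a large change, 6 of them for this difference itself. Their share was thus raised by the choice and says nothing beside that of all genes. Over all 13737 tested genes, 189 were called higher in Hs-578T and lower in MDA-MB-231, and 132 the reverse. The values that follow are the log2 fold change in Hs-578T minus that in MDA-MB-231, each from 8 libraries.

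Among cell cycle genes higher in the Hs-578T knockout and lower in the MDA-MB-231 knockout, the differences were MKI67 (3.68), CENPF (3.65), RRM2 (3.17), AURKA (3.09), CCNB1 (2.83) and FOXM1 (2.36). Matrix genes went the other way, with COL5A1 (-3.48), COL16A1 (-2.60), COL1A2 (-2.34), THBS2 (-7.00), THBS3 (-3.65), MATN2 (-5.80), LUM (-2.50), HSPG2 (-2.27) and MMP11 (-4.09). Secreted and interferon-linked genes that were lower in Hs-578T and higher in MDA-MB-231 were IL1B (-3.20), IL1RN (-3.12), IL1A (-2.30), IL32 (-4.86), IFI27 (-5.65), BST2 (-2.06), GAS6 (-3.26) and IGFBP6 (-2.91), to which JUP (-5.17), SLC12A7 (-6.59) and SPINT1 (-4.05) were added from other lists. The remaining genes, higher in Hs-578T and lower in MDA-MB-231, were ADAMTS1 (4.22), ARHGDIB (6.14), CDYL2 (6.74), COL17A1 (2.62), HBE1 (5.42), MMP3 (3.83), PLXDC2 (6.71) and SSX1 (6.52). The passages were matched between the groups in Hs-578T and not in MDA-MB-231, and each knockout is its own clone, so line, clone and passage cannot be told apart in these differences. Groups of 2 libraries were too small for a check of single samples that stand apart.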

How the results depend on the processing

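Of 152 named genes called in Hs-578T, 39 lost the call under at least 1 alternative and 29 of these when 1 library was left out. The counts were 800 higher and 544 lower in the main analysis. Leaving out 1 library in turn gave 702 to 1082 higher and 503 to 666 lower. Without a fold threshold 4224 genes were higher and 2642 lower, and 8430 differed between the lines, while the study's thresholds of 1.5 and 0.5 gave 2107 higher. With limma voom on the recovered reads 846 were lower. A replicate block left these counts at 800 and 544 and moved the genes that differed between the lines from 3920 to 3922, and among the named genes and list medians it changed no call. The length and GC correction, chosen after seeing the data, gave 777 and 523 with the replicate block. The following values changed sign. Under median-ratio scaling these were MAPK7 (-0.023), COL4A1 (-0.048), COL4A2 (-0.0061), COL6A3 (-0.096) and LOXL2 (-0.058), and under quantile normalization MAPK7 (-0.026), ITGB1 (0.21), ITGB5 (0.12), TGFBI (0.074), VIM (0.34) and SPARC (0.32), the one called gene among them. The length and GC correction, with or without the block, gave COL6A3 (-0.065) and ITGB5 (0.086). Leaving out 1 library gave COL6A3 from -0.15 to 0.19, ITGB1 from -0.10 to 0.076, ITGB5 from -0.10 to 0.084, B9D1 from -0.43 to 0.012, COL4A1 from -0.21 to 0.35, COL4A2 from -0.099 to 0.33, LOXL2 from -0.044 to 0.17 and KLF2 from -0.71 to 0.048. The list medians ran from -0.44 to -0.20 for collagens and from -0.41 to -0.20 for matricellular proteins. The cause was not tested. The number of libraries in a group, 2, limits the precision of every value here.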

Other observations

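Genes that do not code for proteins also differed between the 2 forms. In a fit over all gene types 3120 of them were tested, of which 229 were called higher in ERK5-ko (7.34%) and 137 lower (4.39%). That fit called 1029 of 16857 genes of all types higher and 681 lower. The shares of protein-coding genes in the main fit were 5.82% higher and 3.96% lower. LINC01419, a long non-coding RNA gene of chromosome 8, gave 166 and 215 RPKM in ERK5-ko, 0.878 and 0.706 RPKM in MEK5DD and 5.04 and 5.34 RPKM in the parental line, a log2 fold change of 7.20 ± 0.15 (SE). LINC01608, also on chromosome 8, rose by 4.36, and LINC01425, MGC39584 and LINC00317, all on chromosome 21, by 3.69, 3.42 and 3.41. In the lower direction MEG3, the imprinted non-coding gene of chromosome 14, gave 3.65 and 2.52 RPKM in ERK5-ko against 34.2 and 10.3 RPKM in MEK5DD, where the 2 libraries stood far apart, and its parental level was 9.66 and 7.88 RPKM. LINC00475 and LINC01082 fell by 2.53 and 2.35 on the log2 scale, and LINC01082 was at 0 in both parental libraries. HOXC-AS1 and LMO7-AS1, antisense RNAs, fell by 2.20 and 2.29. These genes were named after their values were seen.

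Zinc finger genes of the ZNF family on chromosome 19, a set picked after the values were seen, gave 20 called higher of 231 tested (8.66%) and 0 lower. Their median was 0.35 on the log2 scale. Of all tested genes 5.82% were called higher and 3.96% lower. The ZNF genes of other chromosomes gave 8 higher and 4 lower of 234 with a median of 0.23, and the other tested genes of chromosome 19 gave 41 higher and 30 lower of 815 with a median of 0.10. The 13 mitochondrially encoded protein genes had a median of -0.45, and 0 of them were called.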
